A study of Mus musculus with 2 samples.

Results

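Of 29415 accessible regions found by ATAC-seq in regulatory T (Treg) cells of the mouse, 743 lay at the start of a long noncoding RNA (lncRNA) gene and apart from every protein-coding start of the GENCODE annotation. ATAC-seq uses the Tn5 transposase, which inserts adapters where DNA is open, so that peaks of insertions mark accessible chromatin. Treg cells are CD4 T cells that depend on the transcription factor Foxp3 and restrain immune responses. The cells were labelled inflammation-experienced, came from a male adult mouse of 6 months of the strain Foxp3CreERT2 x Rosa26YFP, and were described as primary cells that trace back to a bone marrow hematopoietic cell. In this strain the Foxp3 gene drives a Cre recombinase that acts once tamoxifen is given, and a yellow fluorescent reporter marks cells in which Cre has acted. Both samples were technical replicates of biological replicate 1 from the same donor, so the study held 1 group and no control. The peak lists were not split by library, hence all values are single pooled values without replicates, depth is unknown, and no p-value was computed.

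The regions were chosen by position alone. Peaks of the IDR-thresholded list (peaks that kept their rank between 2 sets, by the irreproducible discovery rate) were merged where they overlapped or touched. The peak with the greatest fold enrichment over background gave each region its fold and its summit. A region was kept if its summit lay within 1000 bp of a transcript start of a lincRNA (intergenic), antisense or processed_transcript gene of the GENCODE annotation, and over 1000 bp from every coding transcript start. In all 1719 summits lay within 1000 bp of a lncRNA start, and 976 of them were set aside because a coding start also lay within 1000 bp. The 743 kept were 2.53% of all regions (95% Clopper-Pearson interval 2.35 to 2.71, counting error only, as for every interval here). They had 678 nearest lncRNA genes, of which 60 had 2 or more regions, at most 4. The comparison classes were 10802 coding promoter regions, with a summit within 1000 bp of a coding start, and 17870 distal regions, with neither kind of start in reach.

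LncRNAs are transcribed by RNA polymerase II like messenger RNAs but are not translated into known proteins. Some act on chromatin in cis, as Xist and Kcnq1ot1 do. Others serve as precursors of microRNAs or carry small nucleolar RNAs in their introns, and many come from enhancers or from the antisense strand of coding genes. An open region at such a start may therefore be a promoter of the CpG island kind, as at most housekeeping genes, or an enhancer-like element poor in CpG that is bound by factors of the cell lineage. Which of these a region resembles can be described from its sequence, but accessibility does not measure transcription.

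The T cell identity of the sample was checked at coding starts. All 5 T cell markers tested (Cd3e, Cd3g, Cd5, Cd28 and Bcl11b) had a summit within 1000 bp of a start, and so did 3 of 5 Treg markers (Il2ra, Ctla4 and Ikzf2). None of the 3 B cell, 3 myeloid or 3 CD8 and NK cell markers did. Over all coding genes the share with such a summit was 49.1%, so the count of Treg markers was near that of coding genes at large. Of the other Treg markers, Foxp3 had 2 regions overlapping the gene and Tnfrsf18 had 0.

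Several of the most accessible lncRNA starts were near-copies of each other, which is why 2 sets are shown here; they were picked after their values had been seen. BC002059, Gm6712 and Gm5165 are annotated as lincRNA genes on chromosome 17, and their regions ranked 2, 4 and 13 by fold, with folds of 33.1, 31.8 and 26.5. The 100 bp either side of the summit of BC002059 (chr17:16951350-16951550, plus strand) are printed first, and below them the stretches of the other starts that align to them (chr17:17294229-17294431 and chr17:17234665-17234867, plus strand), with capitals at bases that differ from BC002059; a base that is missing from a line carries no mark but counts as a difference.
BC002059: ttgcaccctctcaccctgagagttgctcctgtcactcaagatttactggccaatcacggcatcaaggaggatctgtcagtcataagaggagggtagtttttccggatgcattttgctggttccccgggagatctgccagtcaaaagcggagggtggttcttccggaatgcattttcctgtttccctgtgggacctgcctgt
Gm6712: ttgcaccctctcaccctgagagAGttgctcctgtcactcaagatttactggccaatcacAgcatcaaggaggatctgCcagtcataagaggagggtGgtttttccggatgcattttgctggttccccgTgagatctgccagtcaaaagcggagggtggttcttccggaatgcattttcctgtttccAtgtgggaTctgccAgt
Gm5165: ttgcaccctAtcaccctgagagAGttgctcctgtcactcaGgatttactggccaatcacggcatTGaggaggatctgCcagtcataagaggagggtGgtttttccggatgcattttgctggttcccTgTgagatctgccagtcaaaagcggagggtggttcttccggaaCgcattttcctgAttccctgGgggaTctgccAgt
Gm6712 differed from BC002059 at 9 positions (95.6% identical) and Gm5165 at 15 (92.6%). In all 3 the summit lay 89 to 118 bp upstream of the annotated start. A distal region of the same chromosome (chr17:17004586-17005526) had a fold of 30.8 and had 96.0% identity with Gm6712 within 50 bp of the summit.

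The other set, Gm32856, Gm20939 and Gm31793, lies on 3 different chromosomes and had folds of 24.3, 22.9 and 21.6. The aligned stretches are chr8:129263497-129263697, chr17:94864785-94864985 and chr10:130542222-130542423, all on the plus strand, and capitals again mark differences from the first.
Gm32856: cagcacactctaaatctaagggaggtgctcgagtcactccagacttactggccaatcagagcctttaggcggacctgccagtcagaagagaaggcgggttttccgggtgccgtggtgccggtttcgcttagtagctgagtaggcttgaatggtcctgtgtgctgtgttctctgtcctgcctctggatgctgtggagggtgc
Gm20939: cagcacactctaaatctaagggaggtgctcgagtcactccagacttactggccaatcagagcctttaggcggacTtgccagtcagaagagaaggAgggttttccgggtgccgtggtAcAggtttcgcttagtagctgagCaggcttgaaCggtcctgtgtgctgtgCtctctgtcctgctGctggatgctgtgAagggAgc
Gm31793: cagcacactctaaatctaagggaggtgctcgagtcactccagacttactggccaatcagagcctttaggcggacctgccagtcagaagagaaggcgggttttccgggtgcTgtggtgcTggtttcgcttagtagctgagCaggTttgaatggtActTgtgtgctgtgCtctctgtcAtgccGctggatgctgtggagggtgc
Gm20939 was 94.6% and Gm31793 95.5% identical to Gm32856, and the summits lay 37 to 44 bp upstream of the starts. All 3 windows hold the letters CCAATNNG, the CCAAT box bound by NF-Y. BC002059 and Gm32856 aligned with 66.2% identity. Near-copies were sought only among pairs of accessible regions sharing at least 20 stretches of 24 bases within 100 bp of their summits. Pairs below that limit were not aligned. In all, 31 of the 743 regions (4.17%, 2.85 to 5.87) had at least 80% identity with such a partner within 50 bp of the summit. For 16 of them a partner was another region at a lncRNA start. By the same search the share was 1.74% (1.502 to 2.01) of coding promoters, 1.38% (1.21 to 1.56) of distal regions and 1.58% of all regions. The median fold of the 31 was 18.1 against 12.3 for the other 712, with 17.8 against 15.4 at coding promoters and 14.2 against 11.9 at distal regions, and 10 of the 50 regions of greatest fold were among them. How reads that fit several copies were placed is not stated in the labels or files, so the split of signal between copies is uncertain.

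The next 4 windows show lncRNA starts of high fold, near T cell genes or of known lncRNAs, for which no such near-copy was found. Each spans 100 bp either side of the summit on the strand of the lncRNA, with motif letters in capitals, some of them further than the 50 bp from the summit used for the motif counts given later. Gm26670 (chr1:191990104-191990304, minus strand) has its summit 9766 bp from the start of Traf5, which encodes a signalling adaptor of TNF receptors, and its window holds the ETS letters CCGGAAGT 2 times, both on the opposite strand. AC163635.1 (chr17:29437285-29437485, minus strand) has Pim1, a kinase gene induced by cytokines, as the nearest coding start, 53368 bp from the summit, and holds the Sp/Klf letters GGGGCGGG 2 times. Dancr (chr5:74092887-74093087, plus strand), a small nucleolar RNA host, holds the CTCF core AGGNGGCAG and the CCAAT box, both on the opposite strand. Mirt1 (chr19:53464751-53464951, minus strand), with its summit 64258 bp from the start of the phosphatase gene Dusp5, holds the AP-1 letters TGANTCA.
Gm26670: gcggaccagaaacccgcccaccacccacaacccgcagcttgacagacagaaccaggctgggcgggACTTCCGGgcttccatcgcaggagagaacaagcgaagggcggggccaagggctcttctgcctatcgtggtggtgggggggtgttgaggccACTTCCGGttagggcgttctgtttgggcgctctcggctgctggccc
AC163635.1: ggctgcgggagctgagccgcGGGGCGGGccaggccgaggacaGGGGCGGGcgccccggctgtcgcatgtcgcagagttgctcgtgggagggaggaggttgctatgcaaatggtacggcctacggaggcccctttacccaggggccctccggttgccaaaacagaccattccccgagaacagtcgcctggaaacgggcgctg
Dancr: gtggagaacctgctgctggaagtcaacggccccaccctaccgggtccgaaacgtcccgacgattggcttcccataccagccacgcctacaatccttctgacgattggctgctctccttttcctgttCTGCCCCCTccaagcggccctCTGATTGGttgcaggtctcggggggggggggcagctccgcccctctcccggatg
Mirt1: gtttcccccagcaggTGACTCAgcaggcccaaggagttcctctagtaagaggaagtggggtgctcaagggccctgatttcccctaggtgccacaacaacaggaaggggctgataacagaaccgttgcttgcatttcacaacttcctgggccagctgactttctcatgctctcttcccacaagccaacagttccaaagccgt
The folds of these 4 regions were 28.9, 21.2, 24.5 and 17.4, and the regions were chosen for being high in their lists.

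Accessible lncRNA starts were fewer than accessible coding starts. Of 9603 annotated lncRNA genes, 1594 (16.6%, interval 15.9 to 17.4) had a summit within 1000 bp of a start, against 49.1% of coding genes (10719 of 21853). Of the 1594, 932 had a start within 1000 bp of a coding start. Among the 1631 lncRNA genes with a start within 1000 bp of a coding start, 57.1% (54.7 to 59.6) had a region, and among the 7672 with every start over 2000 bp from coding starts, 8.16% (7.56 to 8.79) had one. In the latter group the share was 20.4% (16.7 to 24.4) for processed_transcript genes, 7.80% for antisense genes and 7.28% for lincRNA genes. It was 11.1% (10.04 to 12.3) where the best transcript had support level 1, the highest of GENCODE, and 3.61% (2.74 to 4.66) where it had level 5, the lowest. In the longer pseudoreplicated list the share of these genes was 12.1% (11.4 to 12.9), against 54.7% of coding genes. Only 695 lncRNA genes (7.24%) had one of the 743 regions, which exclude regions shared with a coding start. The windows searched for lncRNA starts covered 18.9 Mb, 0.695% of the genome, and the regions were 3.63 times (3.38 to 3.902) their share by length. At coding starts the same ratio was 15.5 (15.3 to 15.7).

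Regions at lncRNA starts lay between coding promoters and distal regions in height and width, closer to distal ones in height. Their median fold was 12.5 (quartiles 8.66 and 16.8), against 15.4 at coding promoters and 11.96 at distal regions. The highest was 41.4 and the lowest 3.11. The median width was 667 bp, against 909 and 545 bp, and 60.3% (56.7 to 63.8) had more than 1 summit, against 79.4% and 41.5%. The median −log10 p given by the authors was 86.9, against 177 and 68.4. Of the 743 regions 338 (45.5%, 41.9 to 49.2) lay above the median fold of all regions, as 50% of all regions do by construction. The order of the other classes depends on merging, with lncRNA starts between them either way: when each peak was counted singly the medians were 7.62 at lncRNA starts, 6.52 at coding promoters and 8.81 at distal regions. Among regions with a single summit, the median fold was 11.1 at the 295 lncRNA starts, 12.4 at coding promoters and 11.1 at distal regions.

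**Figure D1:**
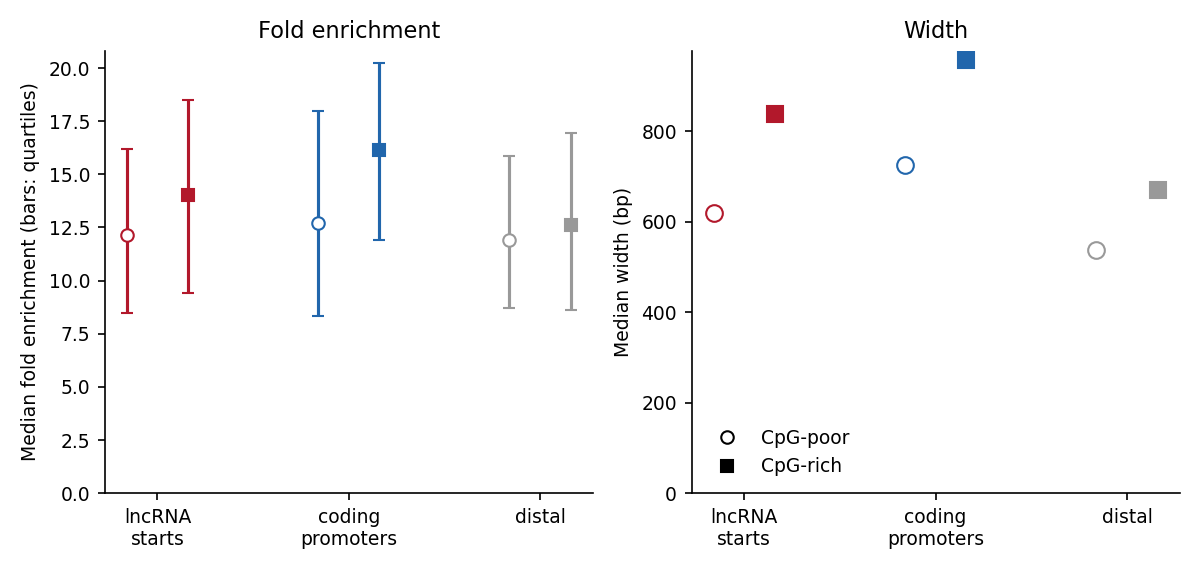
Median fold enrichment with quartiles (left) and median width in bp (right) of regions at lncRNA starts, coding promoters and distal regions, split into CpG-poor and CpG-rich by the bases within 100 bp of the summit. CpG-rich regions at lncRNA starts had a median fold of 14.0 and a width of 838 bp, above the CpG-poor ones at 12.1 and 620 bp.

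The lncRNA starts were divided by base composition at a fixed cut. A summit was called CpG-rich if the bases within 100 bp of it had a GC content of 50% or more and a CpG ratio, observed over expected from the base counts, of 0.6 or more. By this rule 199 regions (26.8%, 23.6 to 30.1) were CpG-rich, against 75.1% of coding promoters, 6.12% of distal regions and 32% of all regions. The median CpG ratio was 0.412, against 0.814 and 0.263, and the median GC content 53.2%, against 63.7% and 48.8%. CpG-rich regions had a median fold of 14.0 and a median distance from summit to start of 80 bp. The 544 CpG-poor ones had a median fold of 12.1 and a median distance of 253.5 bp. CpG-rich lncRNA starts were below CpG-rich coding promoters, with median folds of 14.0 and 16.1, and above CpG-rich distal regions at 12.6. The quartiles of these groups overlapped, and composition was not matched beyond the shared cut. With the summit within 100 bp of the start, CpG-rich lncRNA starts had a median fold of 15.1. Among CpG-poor regions the medians were 12.1 at lncRNA starts, 12.7 at coding promoters and 11.9 at distal regions. The share of CpG-rich regions was 43.0% among the 121 processed_transcript starts. Where lncRNA starts on both strands were in reach of 1 summit, it was 73.7% of 19 regions. Of regions at lncRNA starts, 2.02% had 50% or more of the bases within 100 bp of the summit masked as repeats in the reference. This share was 0.324% of coding promoters, 3.32% of distal regions and 2.19% of all regions.

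Summits gathered just upstream of lncRNA starts, but more loosely than at coding genes. The median position was 57 bp upstream (quartiles 211 upstream and 120 downstream), and 67.2% (63.7 to 70.5) were upstream, against 71.5% at coding starts. Within 100 bp of the start lay 37.7% of summits (280 regions, 34.2 to 41.3), against 66.1% at coding starts. Beyond 500 bp lay 22.7% (169 regions), against 9.18%. The start itself was inside the region in 497 of 743 cases (66.9%, 63.4 to 70.3). Regions with the summit within 100 bp of the start had a median fold of 14.2. The median was 12.7 beyond that up to 250 bp, 11.4 from there to 500 bp and 10.6 from there to 1000 bp. At the limits of the rule, 69 regions up to 200 bp inside the reach of 1000 bp from a lncRNA start had a median fold of 10.8, and 68 regions up to 200 bp outside it had 9.77. The 16 regions that cleared a coding start by up to 200 bp had a median of 6.35, and the 35 that missed by up to 200 bp had 8.52.

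**Figure D2:**
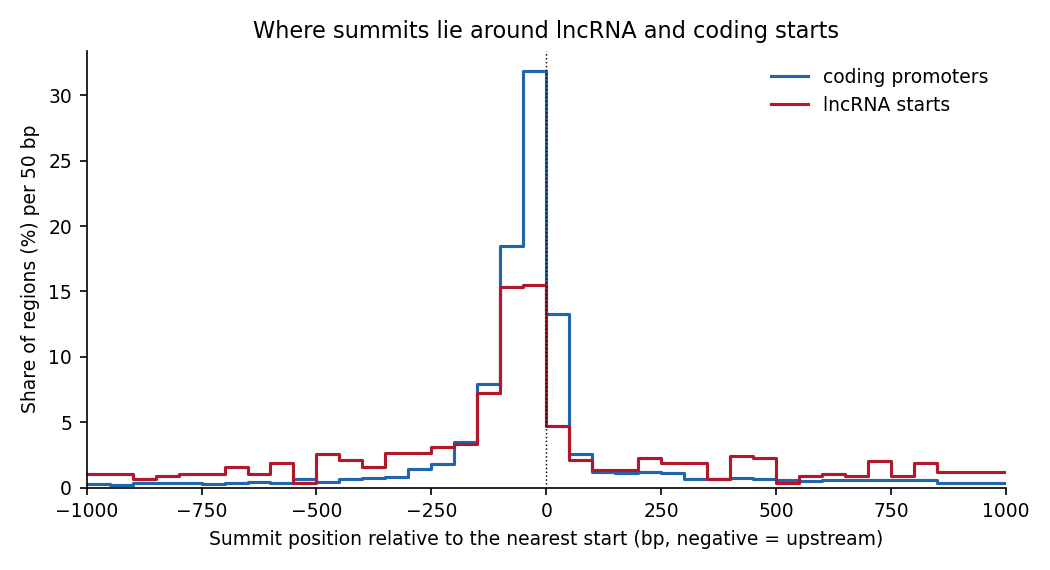
Position of summits relative to the nearest transcript start (x axis, bp, negative is upstream) as the percentage of regions in each 50 bp bin (y axis), for the 743 regions at lncRNA starts and the 10802 coding promoter regions. Both curves peak just upstream of the start, and the lncRNA curve is lower and broader: 37.7% of its summits lay within 100 bp, against 66.1%.

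Crowding by other regions went with lower folds. Another summit lay within 10 kb of 47.8% of coding promoters, 58.5% of distal regions and 54.6% of all regions. For regions at lncRNA starts the share was 59.9% (56.3 to 63.4). The 298 without such a neighbour had a median fold of 15.2, the 227 with 1 neighbour 12.3, the 131 with 2 neighbours 9.25, and the 87 with 3 or more 7.33. The same fall was seen at coding promoters, from 17.7 to 8.10, and at distal regions, from 14.1 to 7.30. Across the 743 regions the rank correlation (Spearman) of fold with the number of neighbours was -0.496, with width 0.384, with distance from the start -0.254 and with CpG ratio 0.155. These are descriptions over regions that share the same libraries. The background behind the authors' fold is not stated in the labels or files, and its part in this relation was not tested.

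**Figure D3:**
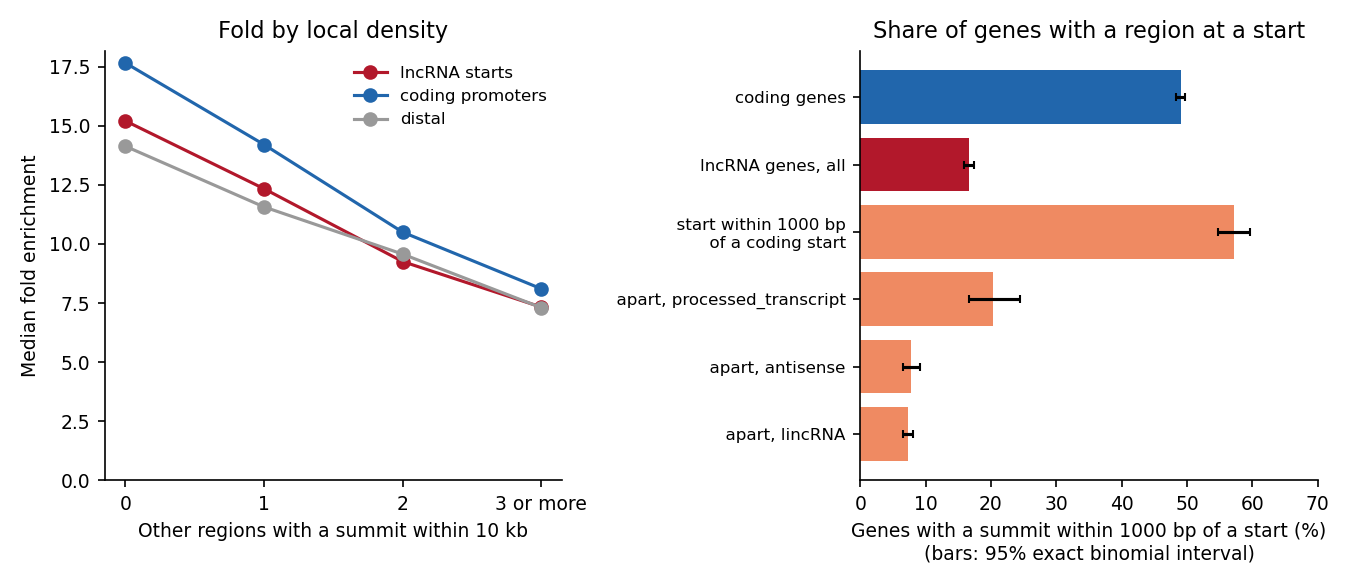
Left, median fold enrichment by the number of other regions with a summit within 10 kb, for the 3 classes. Right, percentage of genes with a summit within 1000 bp of a start, with 95% exact binomial intervals; "apart" means every start over 2000 bp from a coding start. Fold falls with crowding in all 3 classes, and lncRNA genes with a start near a coding start (57.1%) exceed each type apart from one (7.28% to 20.4%).

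For 5 of 13 motifs the share at lncRNA starts lay between those of promoters and distal regions, beyond the intervals of both. The 13 motifs were searched on both strands within 50 bp of summits, and a match describes letters, not binding. The classes differ in GC and CpG content, and no share expected from base composition was computed. The CCAAT box (CCAATNNG) was found in 57 regions (7.67%, 5.86 to 9.83), against 14.1% of coding promoters and 3.22% of distal regions. Sp/Klf letters (GGGGCGGG), typical of CpG islands, were found in 37 (4.98%, 3.53 to 6.80), against 16.3% and 1.70%. ETS letters (CCGGAAGT) were found in 18 (2.42%, 1.44 to 3.802), against 5.87% and 0.985%. For these 3 motifs the interval at lncRNA starts lay above that of distal regions and below that of coding promoters.

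Letters of factors known from T cell enhancers showed the mirror image. AP-1 letters (TGANTCA), read by Fos, Jun and BATF, were found in 44 regions (5.92%, 4.34 to 7.87), against 2.22% of coding promoters and 8.86% of distal regions. Runx letters (TGTGGTT) were found in 40 (5.38%, 3.87 to 7.26), against 1.90% and 9.09%. A doubled interferon response motif (GAAANNGAA) was found in 29 (3.903%, 2.63 to 5.56), against 2.69% and 6.25%. For these 3 the interval lay below that of distal regions, and for AP-1 and Runx also above that of coding promoters. The CTCF core (AGGNGGCAG) was found in 30 (4.04%, 2.74 to 5.71), against 1.55% and 4.08%. Forkhead letters (TGTTTAC), the class read by Foxp3 and Foxo1, were found in 7 (0.942%), against 1.01% and 1.79%. TATA letters (TATAAAA) were found in 10 (1.35%, 0.647 to 2.46), above the 0.417% of coding promoters, with 0.929% at distal regions. The cAMP response letters (TGACGTCA) and the TCF/LEF letters (TCAAAGG) were in 11 regions each (1.48%), against 2.95% and 0.672% for the first and 1.30% and 2.70% for the second. NRF1 letters (GCGCATGC) were found in 4 (0.538%), against 2.43% and 0.381%. YY1 letters (AAGATGGC) were found in 2 (0.269%, 0.0326 to 0.969), below the 1.55% of coding promoters, with 0.834% at distal regions.

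Within the lncRNA starts some motif shares differed between the CpG classes and others did not beyond their intervals. The bases searched for motifs lie within those that set the CpG class. Shares of letters rich or poor in G, C and CpG are therefore tied to this split in part by construction. The CCAAT box was in 12.6% (8.30 to 17.98) of CpG-rich and 5.88% (4.06 to 8.20) of CpG-poor regions, and Sp/Klf letters in 11.1% and 2.76%. AP-1 letters were in 2.01% (0.550 to 5.07) of CpG-rich and 7.35% (5.30 to 9.88) of CpG-poor regions, and Runx letters in 1.01% and 6.99%. The intervals overlapped for the CTCF core (3.52% of CpG-rich and 4.23% of CpG-poor regions), TATA letters (1.51% and 1.29%) and the cAMP response letters (2.01% and 1.29%). Regions with a CCAAT box had a median fold of 16.0, against 12.3 without. None of the 13 motifs was found in 478 regions, 1 in 230 and 2 in 35.

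**Figure D4:**
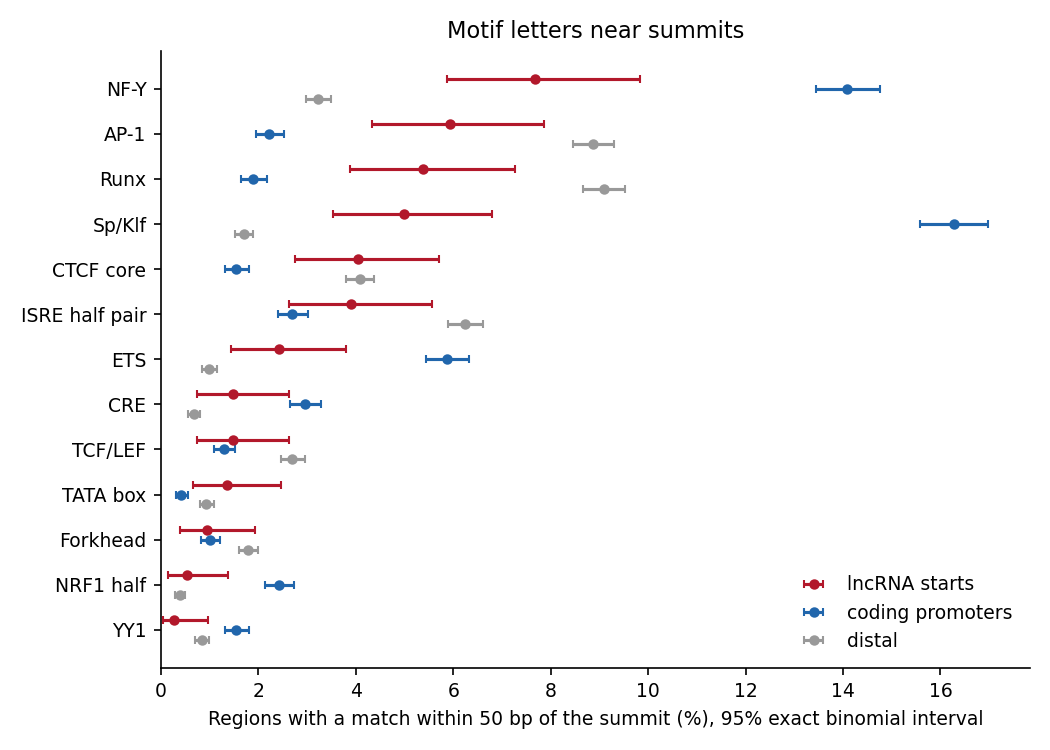
Percentage of regions with a match to each of 13 motifs within 50 bp of the summit (x axis, with 95% exact binomial intervals), for regions at lncRNA starts, coding promoters and distal regions. For NF-Y, Sp/Klf, ETS, AP-1 and Runx the lncRNA starts lie between the other classes.

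Among the gene classes, 432 regions were nearest to a lincRNA start (median fold 12.9), 190 to an antisense start (11.3) and 121 to a processed_transcript start (12.7). The start lay outside coding genes in 550 cases (74.0%, median fold 12.8) and inside a coding gene on its opposite strand in 176 (23.7%, median fold 11.4). Of the 550 outside, 212 lay upstream of the nearest coding start and ran on the opposite strand to it. The 57 regions with a coding start at most 2000 bp away had a median fold of 7.44. The median was 10.9 for the 158 beyond that and within 10 kb, and 13.4 both for the 326 from there to 50 kb and for the 99 beyond 100 kb. At 28 regions a curated RefSeq messenger RNA started within 1000 bp although GENCODE has no coding start there, and their median fold was 15.5. With predicted messenger RNAs of RefSeq included, the number was 53. This group holds the region of greatest fold, at the antisense gene Gm13274 (fold 41.4, −log10 p 530), where the RefSeq gene Gm13286 starts 130 bp from the summit. It also holds Gm6712, Gm5165, Gm32856 and Gm20939, each with a RefSeq messenger RNA of the same name starting 118, 136, 16 and 24 bp from the summit, so 4 of the 6 near-copies printed above count as coding in RefSeq.

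The other regions of greatest fold were at AA465934 (32.8, chr11:83291429-83291873), Gm26670 (28.9), Gm39469 (28.5), 1700020I14Rik (28.5), Gm20429 (27.5), Gm37885 (27.2), C230037L18Rik (26.7), Gm26510 (26.7) and Gm47467 (26.7). In all 12 leading regions the summit lay upstream of the start, by 24 to 135 bp. The 3 of least fold were at 1700023H06Rik (3.25), Gm43672 (3.22) and Junos (3.11), with summits 703 to 967 bp from the start. Junos is antisense to Jun, which encodes an AP-1 subunit and starts 1461 bp from this summit. The regions with the most summits were at E130102H24Rik (8 summits, 1958 bp wide, fold 12.9), Pvt1 (7), Lockd (7), Gm46210 (6) and Gm17494 (6).

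Small nucleolar RNA hosts, which are transcribed in most cells and spliced to release guide RNAs for ribosome assembly, were the most often accessible of the 5 lists of known lncRNAs. Of 18 annotated, 10 had a region apart from coding starts, 6 shared a region with a coding start and 2 (Snhg14 and Snhg18) had none in any list. Over all annotated lncRNA genes, 7.24% had a region apart from coding starts and 16.6% had any region at a start. The lists named 23 small nucleolar RNA hosts, 21 microRNA hosts, 14 genes of imprinting and X inactivation, 24 broadly expressed and 20 immune lncRNAs. Only those found under that name as lncRNA genes of the types used count as annotated. The median of the highest fold per gene was 18.3. Over all regions at lncRNA starts the median was 12.5, an unlike measure that also counts the lower regions of genes with several. The highest were Snhg6 (25.2, chr1:9943684-9944345), Dancr (24.5), Snhg17 (22.5) and Snhg15 (22.0). Snhg12 had regions of 18.6 and 7.00. Epb41l4aos followed at 18.02, Snhg5 at 17.1, Snhg20 at 16.8, Snhg8 at 12.2 and Snhg7os at 12.1. Snhg7os is annotated as an antisense gene, and whether it carries a small nucleolar RNA was not checked. Snhg7 itself was not found as a lncRNA gene of the types used. The shared regions were those of Snhg1 with Slc3a2 (17.8), Snhg3 with Rcc1 (20.5), Snhg9 with Rps2 (14.0), Snhg10 with Glrx5 (18.3), Gas5 with Zbtb37 (17.4) and Zfas1 with Znfx1 (16.5).

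**Figure D5:**
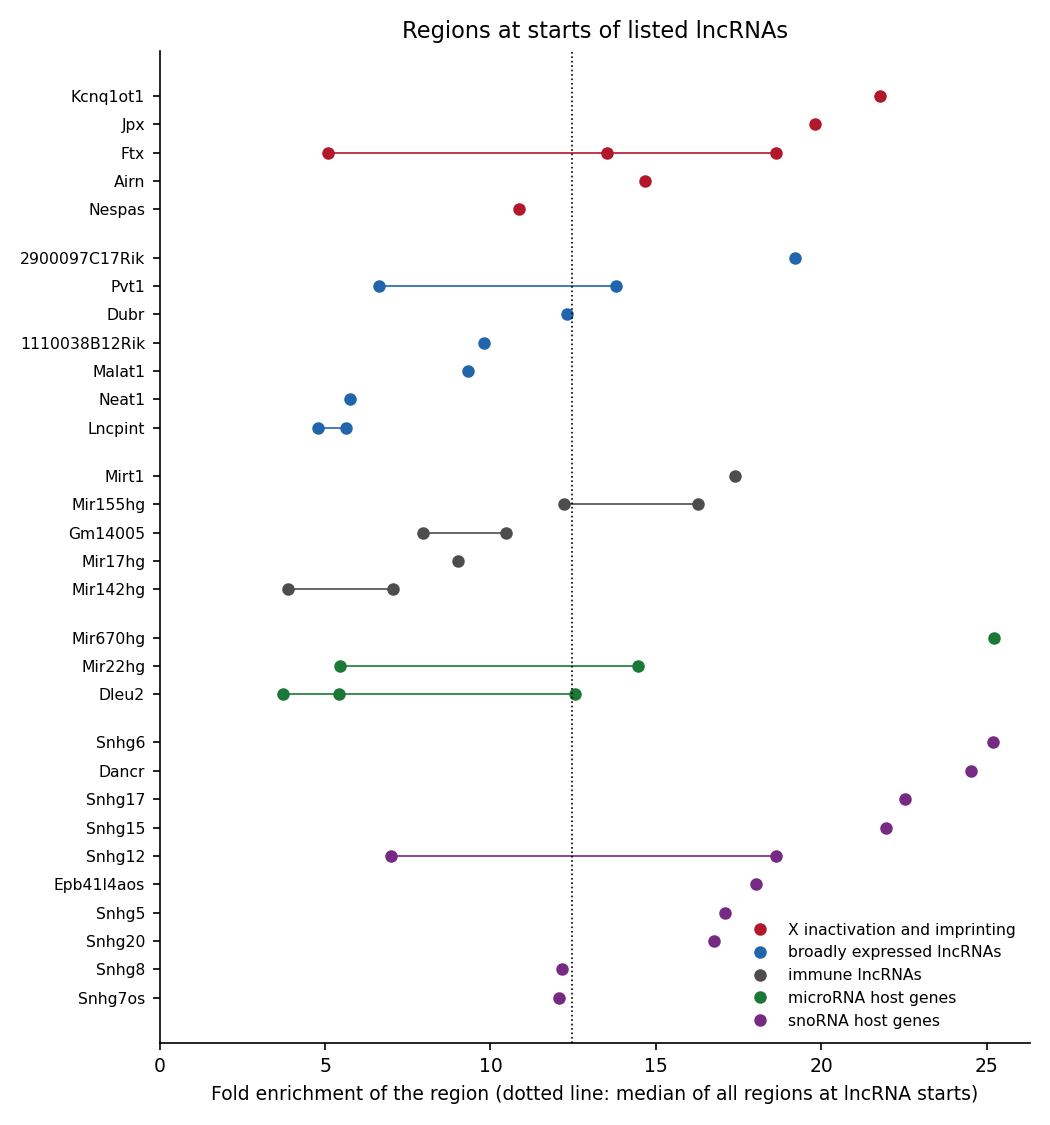
Fold enrichment (x axis) of each region at a start of the listed lncRNAs (y axis), with points of the same gene joined; genes of more than 1 list are drawn once, and the dotted line is the median of all regions at lncRNA starts, 12.5. Small nucleolar RNA hosts reach 25.2, and most have a region above the line.

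MicroRNA hosts included the precursors of microRNAs that act in T cells. Of 11 annotated, 6 had a region, 1 (Mir99ahg, 4.04) had one in the longer list alone and 4 had none. For the microRNAs the regions belong to, the mature sequences are given from RefSeq (GRCm38.p6) with the seed, bases 2 to 8, which pairs with target messages, in capitals.
miR-155-5p: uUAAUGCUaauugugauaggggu
miR-142a-3p: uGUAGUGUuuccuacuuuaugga
miR-17-5p: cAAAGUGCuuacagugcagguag
miR-20a-5p: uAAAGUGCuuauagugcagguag
miR-15a-5p: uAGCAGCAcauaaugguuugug
miR-16-5p: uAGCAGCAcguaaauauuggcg
miR-22-3p: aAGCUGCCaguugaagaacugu
The microRNAs miR-17-5p and miR-20a-5p, both of Mir17hg, share a seed, as do miR-15a-5p and miR-16-5p, both of Dleu2. Mir155hg, the precursor of miR-155, had regions at 2 starts. The one at the 5′ end of the gene (chr16:84702730-84703807) had a fold of 12.2 and a −log10 p of 246. The one at the downstream start (chr16:84712938-84713815) had 16.3 and 323, and ended before the mature miR-155-5p at 84714143. A distal region of fold 4.39 (chr16:84713985-84714374) covered the mature sequence. Mir22hg had folds of 14.5 and 5.45, with summits 70 and 898 bp upstream of its start. Dleu2 had 12.6 at an internal start (chr14:61648338-61649459), above the 5.43 and 3.72 at its 5′ end.

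The remaining hosts were less accessible, with 1 exception. Mir17hg had a region of 9.02 with its summit 635 bp upstream, and another of 10.4 had its summit at position -1987 relative to the start, outside the reach of the rule. Mir142hg, made in blood cells, had 7.07 at its start and 3.87 with the summit at position -809. Mir670hg had the highest fold of the list, 25.2, at an internal start (chr2:94178395-94179306) whose nearest coding start belongs to Hsd17b12. This start, at 94178915 on the minus strand, lies downstream of the microRNAs of the gene (chr2:94241376-94261379), so the transcript that begins there does not span them.

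At lncRNAs of imprinting and X inactivation, 5 of 12 had a region, 3 had one in the longer list alone and 4 (Meg3, Rian, Mirg and H19) had none. Kcnq1ot1, the antisense RNA that silences its imprinted neighbours, had a fold of 21.8 (chr7:143296268-143296991) with the summit 99 bp upstream. Airn, which silences Igf2r in cis, had 14.7, and Nespas, antisense in the Gnas cluster, 10.8. The X inactivation centre was split. Jpx, an activator of Xist, had 19.8 and Ftx had 18.6, 13.5 and 5.10, the highest at an internal start. Xist, the RNA that coats the inactive X in female cells, had a region at a start only in the longer list (fold 6.32), and so did Tsix (6.82). Firre, which lies elsewhere on the X chromosome (chrX:50561047-50561339), also had one in the longer list alone (7.33). Inside the Xist gene a distal region 5562 bp downstream of the 5′ end (chrX:103477371-103477996) had a fold of 20.98.

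Broadly expressed lncRNAs were less open at their starts than the small nucleolar RNA hosts. Of 17 annotated, 8 had a region, with a median of the highest fold per gene of 11.1; Kcnq1ot1 counts in this list too. The Norad gene (2900097C17Rik) led the rest at 19.2. Pvt1, next to Myc, had 13.8 at an internal start and 6.62 near its 5′ end, and within 5 kb of the gene 16 regions were found, the highest at 20.1. Dubr had 12.3, 1110038B12Rik 9.81, and Lncpint 5.63 and 4.78. Malat1, among the most abundant nuclear RNAs, had a single region, of fold 9.31, whose summit lay 949 bp upstream of the annotated start. Neat1, the scaffold of paraspeckles, shared its region (5.75) with the antisense Frmd8os. Another 2 of the list, Tug1 (19.9) and Rmrp (17.96), shared a region with the coding starts of Morc2a and Ccdc107. Gm26917 and Gm42418 had a region in the ranked list alone, with folds of 2.63 and 2.67.

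Of 11 annotated immune lncRNAs, 5 had a region, with a median of the highest fold per gene of 10.5. Besides Mir155hg, Mir142hg and Mir17hg, these were Mirt1, with 17.4, and Gm14005. Gm14005, also called Morrbid, represses the apoptosis gene Bcl2l11 in short-lived myeloid cells and had 10.5 and 7.96 at internal starts. It spans chr2:128178319-128502765 and had 16 regions within 5 kb, the highest a distal one of 25.03. Flicr, which lies next to Foxp3 and dampens its expression, shared its region (9.62, chrX:7574054-7574984) with a coding start of Ppp1r3f and so is not among the 743. Ifngas1, Mirt2, Ptgs2os and Ptgs2os2 had none in any list, and Gm16685 had one in the longer list alone (6.27).

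Regions near T cell genes made up about the same share of lncRNA starts as of all regions. The nearest coding start within 100 kb belonged to 1 of 239 listed T cell genes at 43 regions (5.79%, 4.22 to 7.72), against 5.44% of all regions, 7.23% of distal regions and 2.45% of coding promoters. Their median fold was 9.06, against 12.5 for the 601 regions with another gene in that reach. Of the 43, 14 had a transcription factor gene as this nearest coding gene, 16 a receptor or ligand gene and 13 a signalling gene. After Gm26670, AC163635.1, Gm33533 (19.3, summit 17019 bp from the start of the kinase gene Zap70) and Mirt1, the highest folds were at Gm33619 near the transcription factor gene Myb (16.5), Gm14321 near Cebpb (16.3), Gm37170 near Foxo1 (16.0), Gm38171 near the kinase gene Prkcq (14.8) and Gm4668 near Tgfbr2, a receptor chain for TGF-beta (14.1). Gm33533 starts inside another coding gene, 4933424G06Rik, on its opposite strand. Gm28556 near Ptprc had 13.9 and Gm39323, with its summit 2154 bp from the start of Thy1, 11.1. At 12.8 followed AC157910.4 near Malt1, whose product relays antigen receptor signals. Near receptor and adhesion genes, Gm31897 (Itgal) had 12.3, 2310031A07Rik (Havcr2, the gene of TIM-3) had 11.6, Gm47230 (Cxcr5) had 9.06 and Gm33104 (Ifngr1) had 7.67. The early activation gene Cd69 had 2310001H17Rik as its neighbour, with 2 regions of 9.27 and 7.76. Near transcription factor genes, Gm33460 (Eomes) had 11.9 and Gm32255 (Egr2) had 10.5. Near genes of Ras and MAP kinase signalling, Gm13982 (Rasgrp1) had 9.22 and Gm48089 (Dusp6) had 8.53.

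Some T cell loci held lncRNA starts inside the coding gene. Inside Tcf7, the gene of the T cell factor TCF1, lay A630014C17Rik on the opposite strand (12.4, −log10 p 198) and Gm26551 on the same strand (7.25). Gm11802 in Tox had 16.5, Gm27252 in Klf13 had 11.4 and Bach2os in Bach2, which encodes a repressor needed for Treg cells, had 10.2 with the doubled interferon response motif. Gm11209 in Rgs3 (7.62), Gm27201 in Fli1 (6.64), Gm12000 in Ikzf1 (4.72) and Gm37469 in Cd247 (4.17) were lower. A430093F15Rik, with a summit 8902 bp from the start of Cd5, had 3 regions of 12.8, 5.93 and 4.86 among 8 within 5 kb of the gene. A630019I02Rik had the most regions of any lncRNA gene, 4, with folds from 3.87 to 10.04.

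The IDR-thresholded list keeps peaks that agree between the sets the authors ranked against each other, so the agreement that follows is fixed in part by that choice. The −log10 p of the 2 sets lay within 2-fold of each other at 98.4% (97.2 to 99.2) of regions at lncRNA starts, against 99.1% of coding promoters and 98.4% of distal regions. Over all regions the share within 2-fold was 98.7%. All 743 regions appeared with the same start and end in the longer pseudoreplicated list, as did 99.8% of all regions. The labels do not say which library a set came from.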

How the data were processed

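ATAC-seq peaks of inflammation-experienced Treg cells were taken as deposited on mm10. Per the text files deposited with both samples, 3 lists (pseudoreplicated, IDR-thresholded and IDR-ranked) derive from 1 filtered alignment. Neither labels nor files name the aligner, the peak caller, the IDR limit, or how Tn5 offsets and reads that fit several places were handled. In the deposited lists each peak carries the authors' fold enrichment (a linear ratio), −log10 p-value, a score up to 1000 and a summit. These were used to describe and rank peaks within a list. Peaks were called on pooled data, so no value per library, depth or detection limit could be given.

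Peaks were merged and classified with Python 3.11.15, pandas 2.3.3 and pysam 0.24.0, on GRCm38.p6 with GENCODE M21. Exact binomial intervals came from SciPy 1.17.1, and near-copies were aligned with edlib. Merging, classing, composition and motif search were tested on simulated data. The regions named were the 12 of greatest and 3 of least fold, all at starts of 5 lists of lncRNAs, up to 25 whose nearest coding start within 100 kb is in 3 T cell gene lists, and the 5 with most summits. Of these, 1 region is not reported here. The members and lists were chosen with earlier results of these data known. The near-copies and their shares by class, the crowding and summit-number splits and the regions inside T cell genes were added after values had been seen. Alternatives varied the list, the distances, the starts, the gene types, the summit, merging and the windows.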

Additional observations from a re-analysis of the deposited data

How the results depend on the processing

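No test between conditions, no leaving out of a library and no replicate check was possible, since the lists pool both libraries. No paired analysis was possible because the labels give 1 group. Of 121 values recomputed under alternatives, 70 stayed within the interval (or 1.5 times the count) of the reported one, 51 moved and 0 changed sign. With the pseudoreplicated list the regions numbered 1213, with a median fold of 8.52, a width of 504 bp, 22.2% CpG-rich and 10.99% of lncRNA genes. In the upper 50% of regions by fold the figures were 338, 17.2, 758.5 bp, 33.4% and 3.56%; 77.2% of starts were then outside coding genes, and 1 motif in place of 3 lay below distal regions. Counting each peak singly gave 1480 regions, a median fold of 7.62 and a width of 819 bp. A reach of 500 bp gave a fold of 13.1 and 5.83% of lncRNA genes, and one of 2000 bp gave 12.03, 634 bp and 9.73%. Keeping 500, 2000 or 5000 bp from coding starts gave 8.20%, 6.72% and 6.14% of genes, the last with a fold of 13.2. Using gene 5′ ends alone gave 6.61%, transcripts of support level 1 to 3 gave 8.22%, and leaving out processed_transcript genes gave 6.65%. A window of 250 bp gave 22.6% CpG-rich. The order of median folds (coding promoters, lncRNA starts, distal) held in the pseudoreplicated list (13.0, 8.52 and 7.52) and in the upper 50% (18.5, 17.2 and 16.8), and was reversed when peaks were counted singly (6.52, 7.62 and 8.81), with lncRNA starts still between the other classes. Fewer or more peaks enter by construction when the list, the fold limit, the distances or the gene types change. For the other shifts the cause was not tested.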

Other observations

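Further near-copies among accessible lncRNA starts were found at 9430037G07Rik and 9330159M07Rik on chromosome 9, with folds of 23.8 and 20.4 and 99.01% identity within 50 bp of the summit, and at AI506816 and 2700038G22Rik on chromosome 5, with 15.1 and 14.7 and 99.01%. On chromosome 13, E430024I08Rik (24.6) and Gm47469 (19.9) shared 93.1%, and Gm47467 (26.7) shared 81.2% with the coding promoter of Zfp825 (24.2). A430073D23Rik (22.9) was identical over this stretch to the coding promoter of 4930522L14Rik (20.6). At BC023719 (16.6) the match was the promoter of H2-T23 (14.998), a class Ib MHC gene, with 98.0%.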
